A study of Homo sapiens with 4 samples.

Results

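The genes described here are 54 genes of DNA replication: the origin licensing factors, the replicative helicase and its activators, the replicative polymerases, the sliding clamp, and the genes that supply nucleotides and chromatin at the fork. They were taken by name from a written list, without a threshold on any measured value, though the list was drawn up with earlier results of these data known. They are 54 of the 58302 genes listed in the count table. All 54 of 54 passed the filter on low counts, as did 16181 genes in all. The data are RNA-seq of NCIH838, a lung cancer cell line, in the form called MIB1-iKO (inducible knockout of the ubiquitin ligase MIB1). Every sample carried the same kind of piggyBac construct, which integrates a guide RNA against MIB1, a puromycin resistance gene and a Cas9 that is made only once dox (doxycycline) is added. The 2 no dox samples received no drug and the 2 dox samples received 0.5 µg/mL dox, all collected at day 3. MIB1-iKO cells were grown from single-cell clones, and the labels do not say which clone or guide was used. The study calls the replicates biological, and the labels do not say whether they were separate cultures, so p-values measure only the spread between these samples. The effects of dox, of Cas9 and of MIB1 disruption cannot be told apart in these 4 samples.

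DNA replication is prepared in G1, when the origin recognition complex together with CDC6 and CDT1 loads the MCM2-7 helicase onto origins. In S phase CDC45 and the GINS complex activate the loaded helicase, polymerases alpha, delta and epsilon copy the strands, and PCNA holds the polymerases on the DNA. Many of these genes are transcribed under E2F transcription factors around the G1/S boundary, so their mRNAs are widely read as marks of proliferating cells. In bulk RNA, fewer cycling cells and less RNA per cycling cell cannot be told apart.

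Total counts were between 15943025 and 24398411 per library, lower in both dox libraries. MIB1 had 598 and 588 reads without dox and 90 and 59 reads with dox. On the log2 scale this was -2.58 ± 0.23 (standard error, n = 2 per group; adjusted p = 0.000375, limma). Among the epithelial markers 5 of 6 had reads, with a summed level of 243 to 321 CPM (reads scaled by the library total), and KRT19 had 0 reads in every library. KRT18 (log2 fold change -0.41 ± 0.13, unadjusted p = 0.0067, adjusted p = 0.339, limma) and KRT8 (-0.34 ± 0.11, adjusted p = 0.362) were lower with dox without overlap, while EPCAM (0.13 ± 0.15), KRT7 (0.13 ± 0.12) and CDH1 (0.25 ± 0.17) lay above 0. The part of this in the changes of the replication genes was not tested. Exons of KRT8 and KRT18 overlap on opposite strands, and whether reads were shared between them was not tested. The leukocyte markers PTPRC and CD68, the endothelial marker KDR and the fibroblast marker COL1A2 also had 0 reads in all 4 libraries. Exons of CD68 overlap those of other genes that had reads, and whether reads of CD68 were counted there was not tested. The summed level was 8.22 to 9.71 CPM for the 6 fibroblast markers and 0.352 to 0.779 CPM for the 4 endothelial markers. For the 5 leukocyte markers the summed level was 8.48 to 10.3 CPM, of which CD14 gave 7.58 to 8.62 CPM. Of the marker genes of other cell types, COL1A1 (-0.56 ± 0.40), LUM (-0.13 ± 0.26) and CD14 (0.08 ± 0.19) passed the count filter with overlapping groups.

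The DNA replication genes were lower with dox almost throughout, by amounts that took no single gene past the study's thresholds, which are given below. The median log2 fold change of the 54 genes was -0.31, which is 19.4% lower, against -0.00042 over all 16181 genes tested. The log2 fold change was below 0 for 52 of 54 genes, where 50.1% of all genes tested were below 0. Both dox samples lay below both no dox samples in log2 CPM for 40 of 54 genes (74.1%), against 17.2% of all genes tested. The reverse held only for RFC1, against 19.0% of all genes tested, and the groups overlapped for the other 13. Together the 54 genes took 6031 and 5900 CPM in the no dox samples and 5296 and 5048 CPM in the dox samples, a ratio of group means of 0.867.

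No gene of the 54 was called at the study's thresholds (a 2-fold change with an adjusted p no higher than 0.05), where 0.0371% of all genes tested were. None reached the adjusted p alone in the main limma fit, which has no term for the replicate number. In that fit 0.0680% of all genes tested did, and the smallest adjusted p of the 54 genes was 0.126, for MCM3. More of the 54 genes passed once such a term was added, as given below with the processing. Unadjusted, 27 of 54 genes were lower with dox at p under 0.05 against 4.59% of all genes tested, and 0 were higher against 4.68%. By edgeR's quasi-likelihood test 26 were lower at an unadjusted p under 0.05 and 0 at an adjusted p of at most 0.05. By DESeq2 these counts were 23 and 3, the 3 being MCM3, GINS2 and MCM10. In limma after removal of GC and length trends 1 gene, MCM3, reached an adjusted p of 0.0399. The changes were small: 25 genes were lower by 1.25-fold or more, against 11.6% of all genes tested, and 6 by 1.5-fold or more, against 4.17%. For 3 genes, POLE, CHAF1A and CLSPN, the 95% confidence interval of the change reached a 2-fold decrease. The count of 27 rested on all libraries: leaving out no dox replicate 1 left 11 genes, and leaving out dox replicate 2 left 12.

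**Figure D1:**
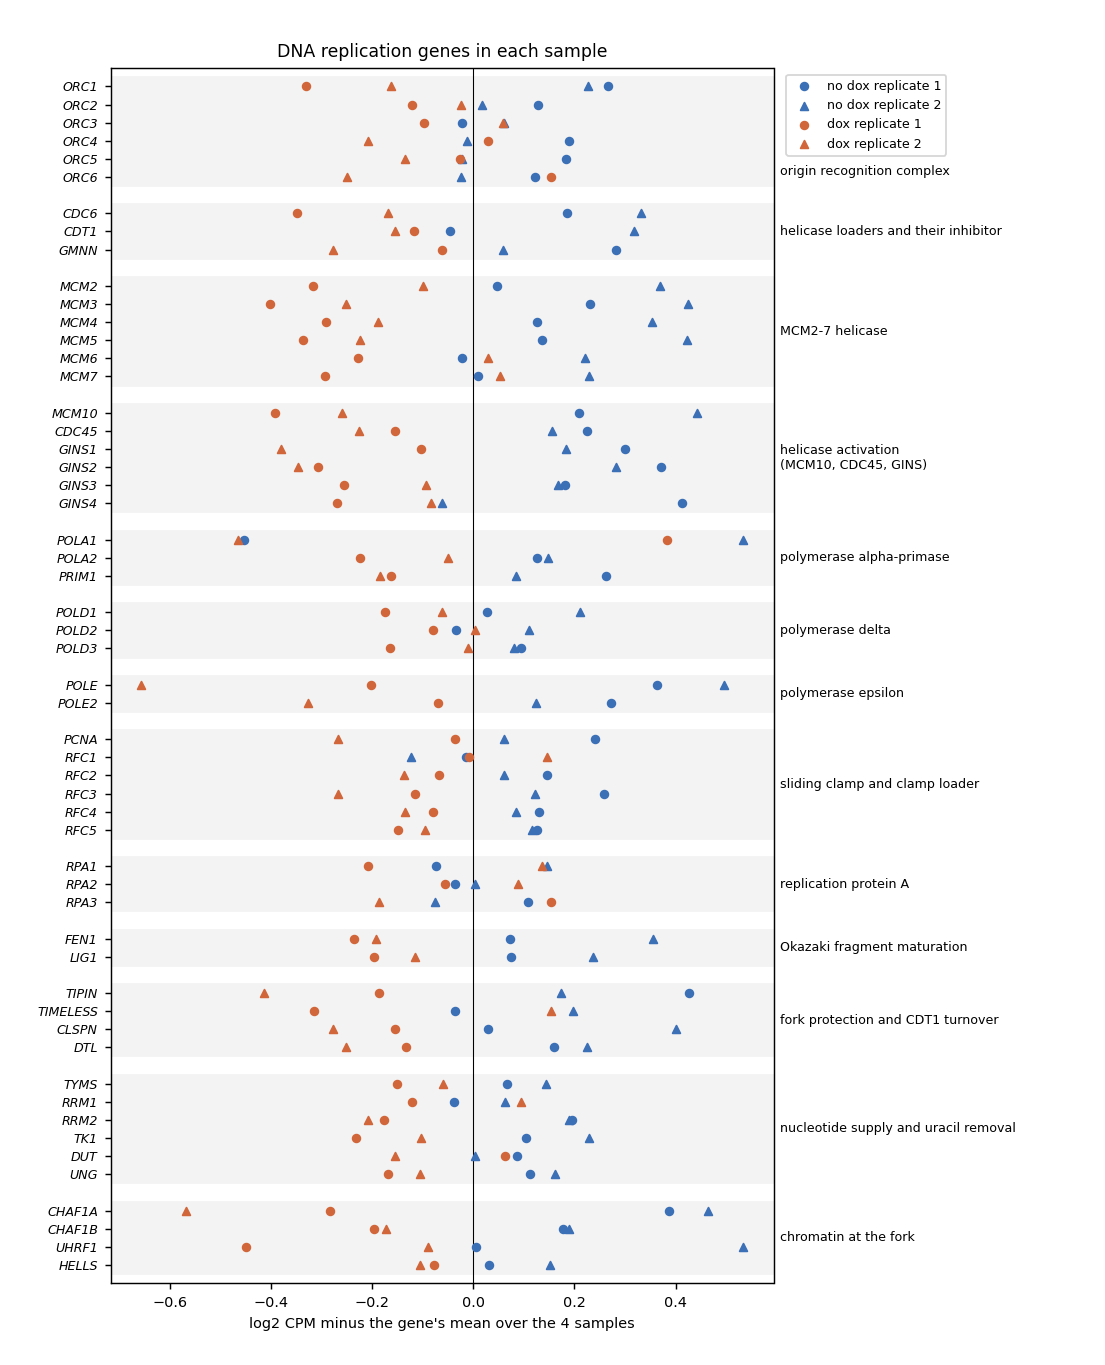
Log2 CPM of each DNA replication gene in each of the 4 samples, minus the mean of that gene over the 4 samples (x axis), by gene and complex (y axis); circles are replicate 1 and triangles replicate 2, blue no dox and orange dox. Blue points lie to the right of orange points for 40 of 54 genes, and the 3 genes of replication protein A show no such order.

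Reads shared between genes touched part of the list. Counting by strand is not stated, and 17 of the 54 genes share exon bases with another gene of at least 100 reads. The overlaps are named below for only some of these 17. Among the 37 others, 35 had a log2 fold change below 0, 19 were lower at an unadjusted p under 0.05, and the median was -0.30. Pseudogenes named after 13 of the genes held at most 6.00% of the reads of the parent gene, the highest share being that of RRM2.

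Because E2F and the CCAAT-binding factor NF-Y are the textbook regulators of these genes, their short recognition letters were searched in the promoters. Windows ran from 250 bases before to 30 bases after the RefSeq start (GRCh38.p14), and 48 of 54 genes had one. GINS4, RPA2, POLD3, MCM5, RPA3 and MCM4 were not matched. E2F letters were TTCCCGC or the variant TTGGCGC or the variant TTCGCGC or the variant TTGCCGC, on either strand. The letters for NF-Y were CCAAT, also on either strand, and in the windows the 2 kinds can overlap. The windows of POLE and CHAF1A, the genes with the lowest log2 fold changes, of MCM3 and MCM10, which have some of the smallest p-values, and of RFC1 and RPA1, with log2 fold changes above or near 0, are shown with E2F and CCAAT letters in capitals. They lie at chr12:132687313-132687592 (POLE, minus strand), chr19:4402390-4402669 (CHAF1A, plus), chr6:52284713-52284992 (MCM3, minus), chr10:13161308-13161587 (MCM10, plus), chr4:39366333-39366612 (RFC1, minus) and chr17:1829755-1830034 (RPA1, plus).
POLE: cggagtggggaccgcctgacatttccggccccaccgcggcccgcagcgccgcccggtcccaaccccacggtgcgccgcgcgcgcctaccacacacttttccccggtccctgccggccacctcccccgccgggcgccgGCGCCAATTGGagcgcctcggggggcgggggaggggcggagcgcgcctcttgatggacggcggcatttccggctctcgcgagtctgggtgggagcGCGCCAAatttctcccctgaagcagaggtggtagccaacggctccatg
CHAF1A: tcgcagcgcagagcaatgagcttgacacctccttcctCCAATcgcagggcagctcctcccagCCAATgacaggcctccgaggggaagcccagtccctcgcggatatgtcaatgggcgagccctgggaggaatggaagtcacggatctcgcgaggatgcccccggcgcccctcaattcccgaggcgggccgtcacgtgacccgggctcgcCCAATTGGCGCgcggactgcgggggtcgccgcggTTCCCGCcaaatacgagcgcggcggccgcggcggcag
MCM3: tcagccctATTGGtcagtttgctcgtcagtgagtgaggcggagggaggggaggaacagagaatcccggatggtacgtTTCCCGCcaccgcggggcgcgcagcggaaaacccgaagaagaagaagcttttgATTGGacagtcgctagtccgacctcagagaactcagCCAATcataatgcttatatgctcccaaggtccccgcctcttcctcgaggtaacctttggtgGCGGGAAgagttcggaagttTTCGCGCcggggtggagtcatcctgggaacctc
MCM10: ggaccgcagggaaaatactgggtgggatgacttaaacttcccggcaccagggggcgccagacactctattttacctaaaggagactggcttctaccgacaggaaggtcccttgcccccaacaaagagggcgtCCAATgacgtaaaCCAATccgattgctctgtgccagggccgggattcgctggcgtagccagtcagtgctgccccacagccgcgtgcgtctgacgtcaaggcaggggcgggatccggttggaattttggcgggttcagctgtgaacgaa
RFC1: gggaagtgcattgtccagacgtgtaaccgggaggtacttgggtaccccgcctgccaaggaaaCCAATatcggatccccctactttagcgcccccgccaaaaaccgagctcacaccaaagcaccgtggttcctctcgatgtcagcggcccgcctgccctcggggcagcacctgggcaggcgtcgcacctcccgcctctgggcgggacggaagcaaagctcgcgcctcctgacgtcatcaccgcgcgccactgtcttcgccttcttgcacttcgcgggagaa
RPA1: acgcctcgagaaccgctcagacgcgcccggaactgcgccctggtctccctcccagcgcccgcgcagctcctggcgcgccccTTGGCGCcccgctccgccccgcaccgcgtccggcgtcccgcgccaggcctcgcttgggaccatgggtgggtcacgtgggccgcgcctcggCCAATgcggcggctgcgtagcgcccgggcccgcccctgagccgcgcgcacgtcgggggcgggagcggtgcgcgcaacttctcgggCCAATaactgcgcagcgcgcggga
POLE and CHAF1A each held 2 E2F matches, and in both windows 1 of these overlaps the CCAAT letters, which there read on both strands at once. MCM3 held 3 E2F and 3 CCAAT matches. MCM10, whose change was close to that of MCM3, held 2 CCAAT matches and no E2F letters, and RPA1, whose level with dox was within the spread of the samples, held 1 E2F match. RFC1 held 1 CCAAT match. A match describes the letters only, and its absence says only that these letters are not in the window.

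E2F letters stood in 33 of the 48 windows (68.8%), against 19.7% of the 10761 windows of genes tested and 12.3% of all 27305 windows. CCAAT letters stood in 30 windows (62.5%), against 36.2% and 34.7%. The letters TTTGAA (either strand), the core of the element that marks late cell cycle genes, stood in 1 window (2.08%), that of RRM1, against 9.20% and 14.7%. Median GC content of the windows was 65.5% for the replication genes and 65.4% for the genes tested. All 33 genes with E2F letters had a log2 fold change below 0, with a median of -0.32, and 18 of them were lower at an unadjusted p under 0.05. Of the 15 genes without them, 14 were below 0, the median was -0.22 and 7 were lower at an unadjusted p under 0.05. Over all genes tested with a window, the medians were -0.030 with E2F letters and 0.0030 without, so genes chosen by these letters alone were nearly centred on 0.

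**Figure D2:**
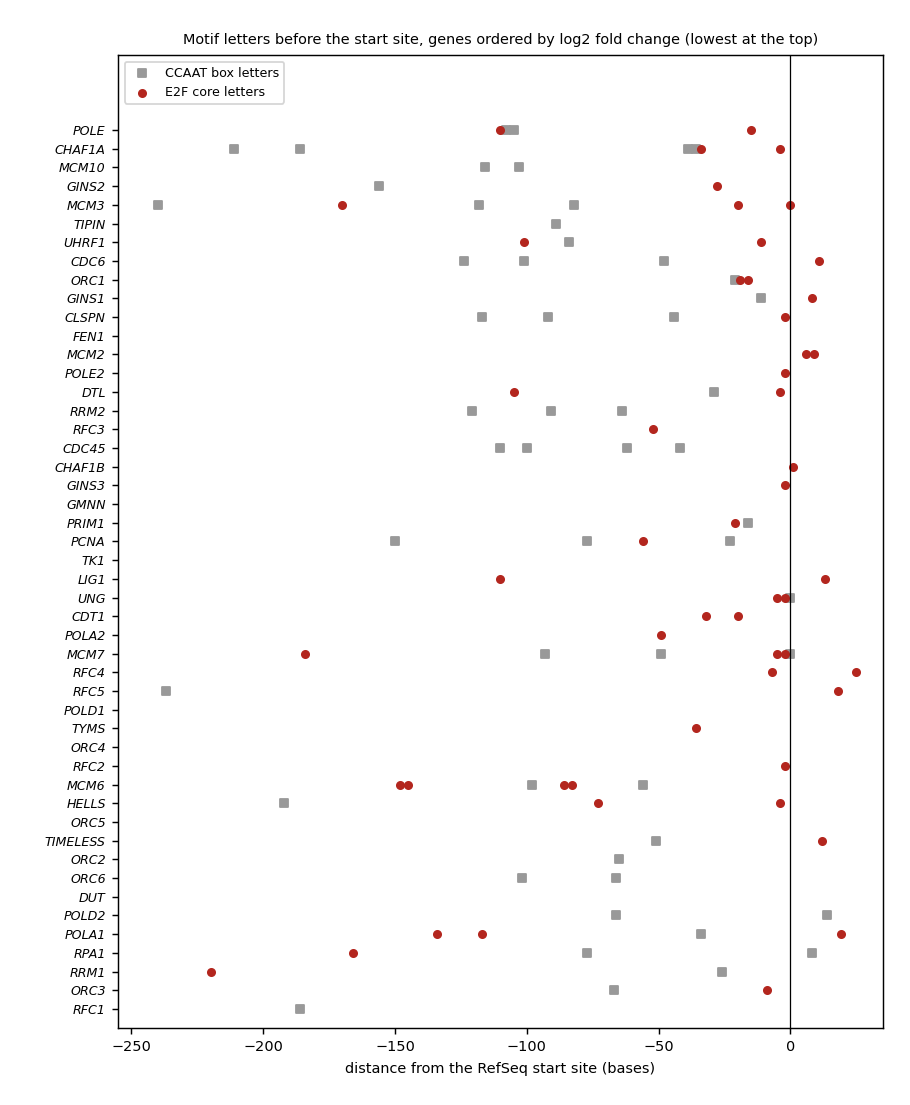
Position of E2F letters (red circles) and CCAAT letters (grey squares) relative to the RefSeq start site, in bases (x axis), for the 48 DNA replication genes with a promoter window, ordered from the lowest log2 fold change at the top to the highest at the bottom. E2F letters occur down to the genes near the bottom, and RFC1, the last gene, has 1 CCAAT match and none of E2F.

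The origin recognition complex, which marks origins, was lower mainly in its ORC1 subunit. Its median log2 fold change was -0.14, 1 of 6 genes was lower at an unadjusted p under 0.05, and the groups did not overlap for 3. ORC1, the subunit whose abundance varies through the cell cycle, had 19.2 and 18.7 CPM without dox and 12.7 and 14.3 CPM with dox. Both dox samples were below both no dox samples, by -0.49 ± 0.16 on the log2 scale (unadjusted p = 0.0083, adjusted p = 0.355, limma). ORC3, a core subunit, had 81.6 and 86.4 CPM without dox and 77.5 and 86.3 CPM with dox, and its groups overlapped (log2 fold change -0.02 ± 0.11). Per gene length, in RPKM (reads per kilobase of gene model, scaled for depth by the authors), ORC1 was also the least abundant subunit, at 6.02 ± 0.409 RPKM (SD, n = 2) without dox, where ORC6 stood highest at 63.0 ± 7.57 RPKM. In RPKM the groups of ORC5 overlapped, though not in CPM, and those of ORC3 did not overlap.

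The loading factors were lower as a group: the median of CDC6, CDT1 and their inhibitor geminin (GMNN) was -0.34, and for all 3 the groups did not overlap. CDC6, the ATPase that recruits the helicase to origins, had 62.1 and 68.8 CPM without dox and 42.9 and 48.6 CPM with dox, a log2 fold change of -0.49 ± 0.12 (unadjusted p = 0.00107, adjusted p = 0.209, limma). CDT1, which brings MCM2-7 to the origin, had 7.91 and 10.2 CPM without dox and 7.53 and 7.33 CPM with dox, so that the lower no dox sample nearly touched the dox samples. GMNN, which blocks CDT1 after S phase has begun, had 247 and 212 CPM without dox and 195 and 168 CPM with dox, a log2 fold change of -0.34 ± 0.12 (unadjusted p = 0.0134, adjusted p = 0.390, limma). The licensing factors and their inhibitor thus stood on the same side of 0.

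Among the 6 subunits of the MCM2-7 helicase, which unwinds DNA ahead of the fork, the median log2 fold change was -0.43 and 4 were lower at an unadjusted p under 0.05. MCM3 had 63.6 and 72.7 CPM without dox and 41.0 and 45.5 CPM with dox. The groups stood clearly apart, with a log2 fold change of -0.64 ± 0.12 (unadjusted p = 0.000132, adjusted p = 0.126, limma), and the fold change was between -0.69 and -0.58 when any of the 4 libraries was left out. MCM5 had 61.2 and 74.6 CPM without dox and 44.1 and 47.7 CPM with dox (log2 fold change -0.55 ± 0.13, adjusted p = 0.179, limma). MCM4 had 70.5 and 82.5 CPM without dox and 52.8 and 56.7 CPM with dox (log2 fold change -0.46 ± 0.12, adjusted p = 0.246, limma). MCM2 had a log2 fold change of -0.40 ± 0.13 with groups that did not overlap. MCM6 and MCM7 were the exceptions, with groups that overlapped in CPM, though not in the RPKM as deposited, which are scaled differently. MCM6 had 173 and 205 CPM without dox and 150 and 179 CPM with dox (log2 fold change -0.19 ± 0.12), and that of MCM7 was -0.24 ± 0.12.

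The subunits of this heterohexamer were not equally abundant as mRNA. Per gene length MCM7 (52.9 ± 3.09 RPKM without dox, SD, n = 2) and MCM6 (50.5 ± 3.56 RPKM) stood highest and did not differ beyond their spread, followed by MCM2 (30.2 ± 3.29 RPKM). MCM3 (21.2 ± 0.967 RPKM), MCM5 (19.2 ± 1.75 RPKM) and MCM4 (18.1 ± 1.13 RPKM) came last, and MCM5 and MCM4 did not differ beyond their spread. With dox MCM3, MCM4 and MCM5 lay at 13.3 ± 0.0193, 12.9 ± 0.307 and 12.9 ± 0.254 RPKM, so the 3 least abundant subunits stayed the least abundant.

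Helicase activation was lower in all of its genes: for MCM10, CDC45 and the 4 GINS subunits the dox samples lay below the no dox samples without exception, with a median log2 fold change of -0.43. MCM10, which acts on the loaded helicase to start unwinding, had 33.7 and 39.7 CPM without dox and 22.2 and 24.3 CPM with dox, a log2 fold change of -0.65 ± 0.14 (unadjusted p = 0.00032, adjusted p = 0.165, limma). GINS2 had 62.5 and 58.7 CPM without dox and 39.0 and 37.9 CPM with dox. The replicates of each group were close together and the groups far apart, with a log2 fold change of -0.64 ± 0.13 (unadjusted p = 0.000229, adjusted p = 0.154, limma). GINS1 had 169 and 156 CPM without dox and 128 and 106 CPM with dox (log2 fold change -0.48 ± 0.13, adjusted p = 0.246, limma), and its fold change was between -0.65 and -0.31 when a library was left out. CDC45, GINS3 and GINS4 had log2 fold changes of -0.36 ± 0.13, -0.35 ± 0.18 and -0.37 ± 0.23. The groups of GINS4 nearly touched, at 7.69 CPM in no dox replicate 2 and 7.57 CPM in dox replicate 2. Its fold change was between -0.64 and -0.068 when a library was left out. Of the 6 genes, 4 were lower at an unadjusted p under 0.05 (limma), and GINS3 and GINS4 were not. The 4 GINS subunits form a 1:1:1:1 assembly, yet their mRNA levels ran from 1.70 ± 0.474 RPKM for GINS4 to 50.3 ± 5.34 RPKM for GINS1. Exons of GINS1 and GINS2 overlap those of NINL and GSE1 on the opposite strand, which had 705 and 398 reads over the 4 libraries against 11275 and 4038 for the GINS genes.

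**Figure D3:**
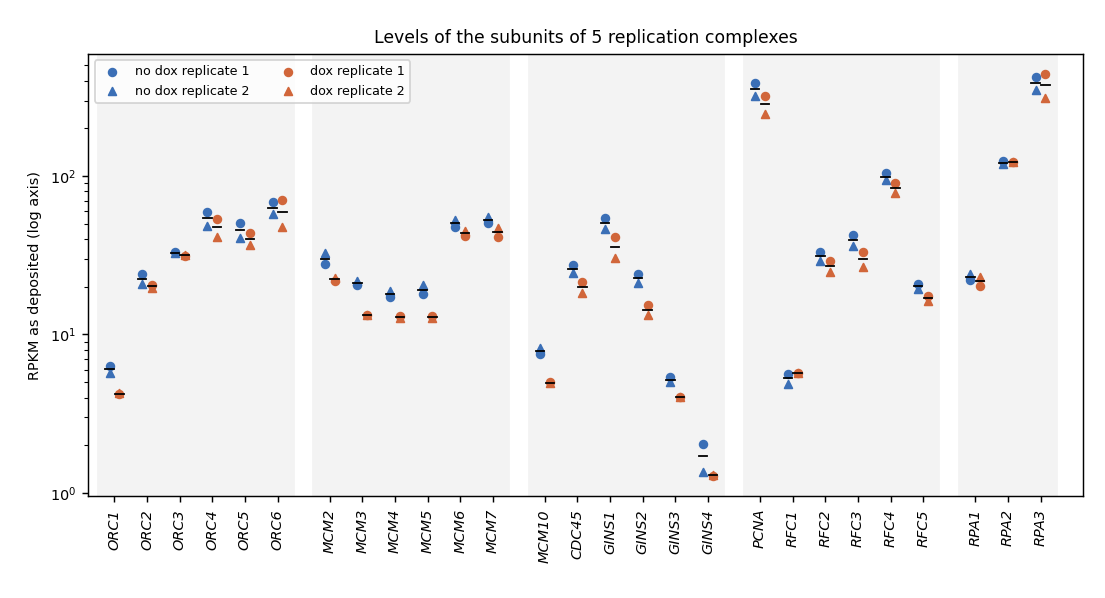
RPKM as deposited, on a log axis, of the subunits of 5 replication complexes in each sample (symbols) with the group means (bars); blue no dox, orange dox. Within MCM2-7 the groups of MCM6 and MCM7 lie close together and those of MCM3, MCM4 and MCM5 far apart, and the groups overlap for all 3 subunits of replication protein A. The groups of PCNA and ORC5 also overlap here, though not in CPM, and those of ORC3 overlap in CPM but not here.

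The median log2 fold changes of the polymerase complexes were -0.62 for epsilon, -0.26 for alpha-primase and -0.16 for delta, and the differences between them were not tested. For polymerase epsilon, which copies the leading strand, both genes had groups that did not overlap. POLE, the catalytic subunit, had 12.2 and 13.3 CPM without dox and 8.22 and 5.98 CPM with dox. Its log2 fold change of -0.86 ± 0.21 was the lowest of the 54 genes (unadjusted p = 0.00108, adjusted p = 0.209, limma), and was -1.17 without dox replicate 1 and -0.56 without dox replicate 2. POLE2, its accessory subunit, had a log2 fold change of -0.39 ± 0.14. Polymerase alpha-primase, which lays down the primers, had 2 of 3 genes at an unadjusted p under 0.05. PRIM1, the small primase subunit, had 68.0 and 60.1 CPM without dox and 50.6 and 49.9 CPM with dox (log2 fold change -0.33 ± 0.13), but its exons overlap those of NACA, which had 26781 reads together with HSD17B6. POLA1, the catalytic subunit, had 4.92 and 9.76 CPM without dox and 8.78 and 4.87 CPM with dox. Its replicates differed more than its groups, and no direction can be given (log2 fold change -0.07 ± 0.32).

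Polymerase delta, which copies the lagging strand, had a median log2 fold change of -0.16 and no gene at an unadjusted p under 0.05. POLD1, the catalytic subunit, had 63.7 and 72.4 CPM without dox and 55.4 and 59.9 CPM with dox (log2 fold change -0.22 ± 0.12). POLD2 had 127 and 140 CPM without dox and 123 and 130 CPM with dox, with overlapping groups (log2 fold change -0.08 ± 0.11). The catalytic subunit POLE was at 1.63 ± 0.0261 RPKM without dox and POLD1 at 19.2 ± 0.796 RPKM, so the value for POLE rests on 102 to 297 reads per library and that of POLD1 on 883 to 1554.

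PCNA and its loader, replication factor C, had a median log2 fold change of -0.22, with 2 of 6 genes at an unadjusted p under 0.05. PCNA, the sliding clamp, had 549 and 485 CPM without dox and 453 and 386 CPM with dox, a log2 fold change of -0.32 ± 0.10 (unadjusted p = 0.00745, adjusted p = 0.350, limma). In the RPKM as deposited its groups overlapped, at 388 and 319 RPKM without dox and 322 and 247 RPKM with dox. RFC3, a small subunit of the loader, had the lowest value of the complex, with 118 and 107 CPM without dox and 90.7 and 81.6 CPM with dox (log2 fold change -0.37 ± 0.13). RFC1, the large subunit, stood on the other side with 26.7 and 24.8 CPM without dox and 26.8 and 29.8 CPM with dox. The groups of RFC1 did not overlap but nearly touched, and its log2 fold change of 0.15 ± 0.14 was within its error (adjusted p = 0.801, limma). RFC2, RFC4 and RFC5 lay between -0.23 and -0.19.

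Replication protein A, which coats single-stranded DNA at forks and also serves in DNA repair, was the complex closest to 0, with a median log2 fold change of -0.01 and overlapping groups for all 3 subunits. RPA1 had 92.3 and 107 CPM without dox and 84.0 and 107 CPM with dox (log2 fold change -0.05 ± 0.12). RPA2 had 241 and 248 CPM without dox and 238 and 263 CPM with dox, a log2 fold change of 0.03 with a 95% confidence interval from -0.20 to 0.25. RPA3 had 876 and 772 CPM without dox and 905 and 714 CPM with dox, a log2 fold change of -0.01 with an interval from -0.23 to 0.20. The intervals of RPA2 and RPA3 do not hold the -0.31 that was the median of the 54 genes, whereas that of RPA1, from -0.32 to 0.22, does. RPA3 was also the most abundant gene of the list per gene length, at 387 ± 53.6 RPKM without dox, and its exons overlap those of UMAD1 on the opposite strand.

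FEN1 and LIG1, the nuclease and ligase that finish Okazaki fragments, were both lower. FEN1 had 36.7 and 44.6 CPM without dox and 29.6 and 30.5 CPM with dox (log2 fold change -0.41 ± 0.14, unadjusted p = 0.00851, adjusted p = 0.355, limma). Exons of FEN1 overlap those of FADS2 on the same strand, which had 5474 reads against 2833 for FEN1. LIG1 had 30.5 and 34.1 CPM without dox and 25.3 and 26.7 CPM with dox (log2 fold change -0.30 ± 0.14).

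The genes that stabilise the fork and clear CDT1 had a median log2 fold change of -0.43. TIPIN had 30.8 and 25.8 CPM without dox and 20.1 and 17.2 CPM with dox, a log2 fold change of -0.60 ± 0.17 (unadjusted p = 0.00393, adjusted p = 0.305, limma). Its binding partner TIMELESS had 47.8 and 56.2 CPM without dox and 39.4 and 54.5 CPM with dox. The groups of TIMELESS overlapped, and its log2 fold change of -0.15 ± 0.14 was within about its error. CLSPN, the checkpoint adaptor claspin, had the fewest reads of the list, 96 and 108 without dox and 55 and 54 with dox (log2 fold change -0.47 ± 0.26). DTL, the receptor that sends CDT1 for degradation, had a log2 fold change of -0.38 ± 0.15. Its exons overlap those of INTS7 on the opposite strand, which had 4053 reads against 1730 for DTL.

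The genes for nucleotide supply and uracil removal had a median log2 fold change of -0.24, with 3 of 6 at an unadjusted p under 0.05. The subunits of ribonucleotide reductase, which makes deoxynucleotides, differed in their values. RRM2, the small subunit whose level follows S phase, had 38.9 and 38.8 CPM without dox and 30.0 and 29.4 CPM with dox, a log2 fold change of -0.37 ± 0.14 (unadjusted p = 0.0158, adjusted p = 0.407, limma). RRM1, the large subunit, had 148 and 159 CPM without dox and 140 and 163 CPM with dox, with overlapping groups and a log2 fold change of -0.03 ± 0.11. TK1, the thymidine kinase of proliferating cells, had 112 and 122 CPM without dox and 88.8 and 97.1 CPM with dox (log2 fold change -0.32 ± 0.11). TYMS (thymidylate synthase), UNG (uracil-DNA glycosylase) and DUT (dUTPase) had log2 fold changes of -0.22, -0.26 and -0.09, and the groups overlapped only for DUT.

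Of the genes that assemble or maintain chromatin behind the fork, all 4 had groups that did not overlap, with a median log2 fold change of -0.44. CHAF1A, the large subunit of the histone chaperone CAF-1, had 13.1 and 13.8 CPM without dox and 8.22 and 6.75 CPM with dox. Its log2 fold change of -0.85 ± 0.20 was second only to that of POLE (unadjusted p = 0.000669, adjusted p = 0.174, limma), and ran from -1.07 to -0.63 when a library was left out. CHAF1B, the second CAF-1 subunit, had 16.9 ± 0.0918 CPM (SD, n = 2) without dox and 13.1 ± 0.151 CPM with dox (log2 fold change -0.35 ± 0.16). Exons of CHAF1B overlap those of MORC3 on the same strand, which had 3181 reads against 1203 for CHAF1B. Those of CHAF1A overlap UBXN6 on the opposite strand, with 369 reads against 859 for CHAF1A. UHRF1, which carries DNA methylation through replication, had 8.28 and 11.9 CPM without dox and 6.02 and 7.74 CPM with dox (log2 fold change -0.53 ± 0.21). HELLS, a chromatin remodeler, had a log2 fold change of -0.18 ± 0.19.

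**Figure D4:**
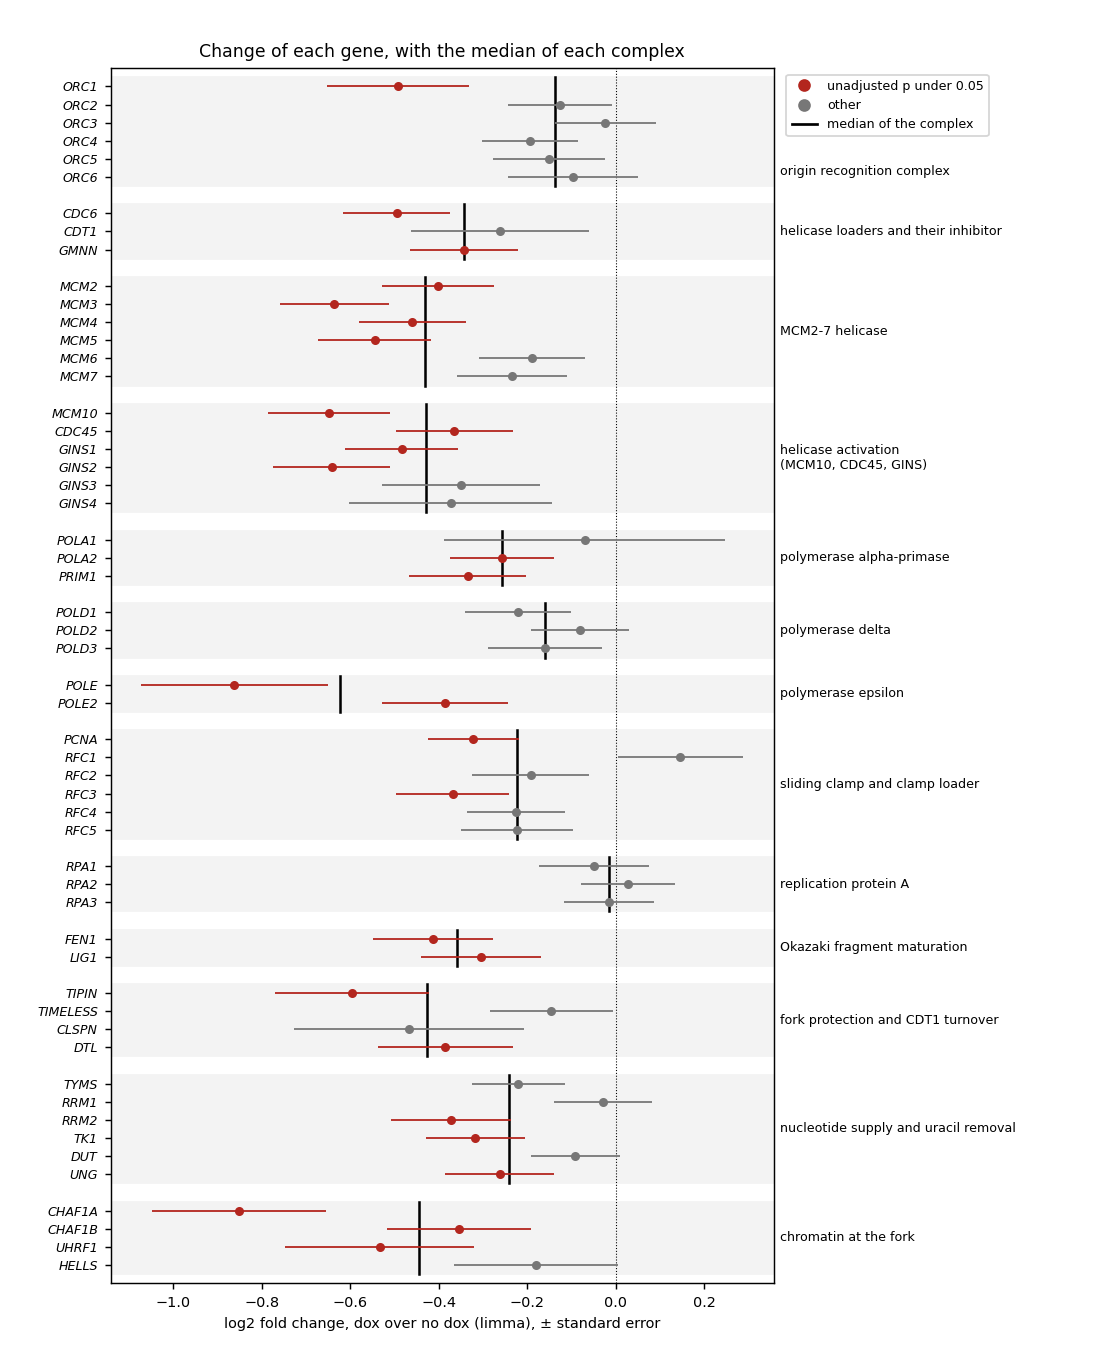
Log2 fold change of each DNA replication gene, dox over no dox by limma (x axis, points, bars ± standard error), by complex (y axis); red points have an unadjusted p under 0.05 and vertical bars mark the median of each complex. The medians run from -0.62 for polymerase epsilon to -0.01 for replication protein A, and RFC1 at 0.15 has the highest value.

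The 27 genes with the lower mean RPKM without dox had a median log2 fold change of -0.37, and the 27 with the higher one of -0.22. Both the lowest and the highest log2 fold change of the list, those of POLE and RFC1, were among the 27 less abundant genes. Whether level and change are related was not tested. Mean levels without dox ran from 0.907 RPKM for CLSPN to 387 RPKM for RPA3.

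Beyond these 54 genes, 35 other replication genes (further polymerase, helicase, clamp-loading and licensing factors) gave a smaller shift. Their median log2 fold change was -0.16, and 30 of 35 were below 0, against 50.1% of all genes tested. At an unadjusted p under 0.05 in limma, 6 were lower and 2 higher, against 4.59% and 4.68% of all genes tested. None passed the adjusted threshold in limma. Both dox samples were below both no dox samples for 13 of the 35 and above for 3, against 17.2% and 19.0% of all genes tested. ATAD5, which unloads PCNA, had 7.21 and 7.40 CPM without dox and 4.64 and 4.93 CPM with dox (log2 fold change -0.63 ± 0.22). RECQL4, a helicase of origin firing, had 15.9 and 21.1 CPM without dox and 12.4 and 12.3 CPM with dox (log2 fold change -0.56 ± 0.17). On the other side stood CHTF18, of the alternative clamp loader, at 14.6 and 17.6 CPM without dox and 19.3 and 22.2 CPM with dox (log2 fold change 0.37 ± 0.15), and POLD4, the small subunit of polymerase delta, at 0.33 ± 0.14. Whether this list differs in its change from the 54 genes was not tested.

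**Figure D5:**
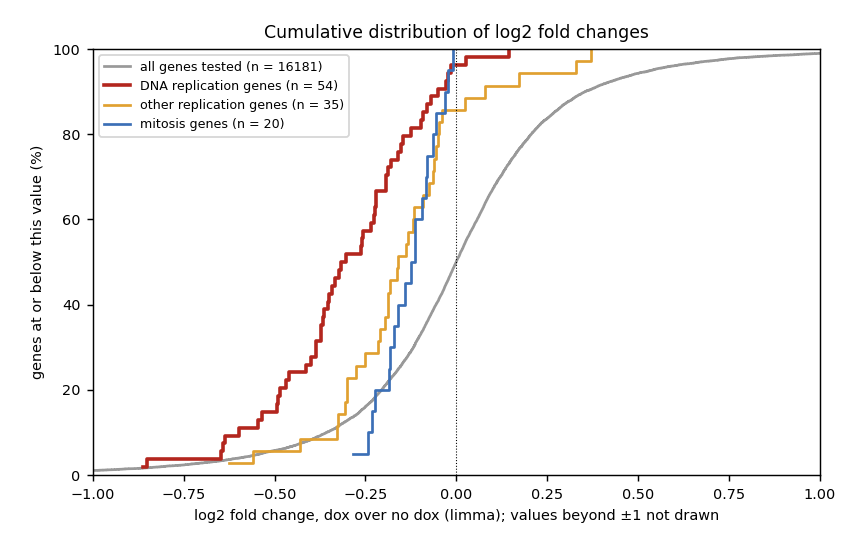
Cumulative share of genes, in percent (y axis), at or below each log2 fold change, dox over no dox by limma (x axis), for all 16181 genes tested, the 54 DNA replication genes, the 35 other replication genes and the 20 mitosis genes. The curve of the 54 genes lies to the left of the curve of all genes, with 52 of 54 genes below 0 against 50.1% of all genes tested.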

How the data were processed

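RNA-seq of 2 no dox and 2 dox samples was analysed, grouped by the sample labels. The authors filtered out ribosomal reads, used GSNAP for alignment to GRCh38, and used HTSeqGenie to count exonic reads per gene, as the methods of the study state. The deposited counts are whole numbers per gene, and the RPKM deposited by the authors are scaled by gene length, depth and a further factor per sample. The methods name a RefSeq annotation but the identifiers are Ensembl ones. The kit used and the use of strand are not given in the sources used here. Symbols came from GENCODE release 44 (57532 of 58302 identifiers).

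After a filter on low counts added here (filterByExpr), the test followed the study's methods: scaling by library total, quantile normalization, voom weights and limma 3.58.1 (R 4.3.3), with Benjamini-Hochberg adjustment over 16181 genes. CPM are counts divided by the library total and multiplied by 1e6. With 2 samples per group an exact permutation test cannot go below p = 0.333, so non-overlap is given without a p. edgeR 4.0.16, DESeq2 1.42.0, other scalings and filters, log2(RPKM + 0.1) and log2(RPKM + 1), thinning, removal of GC and length trends, the replicate number as a term and leave-one-out fits were the alternatives. The script was tested on simulated data. Replicate pairs differed by more than sampling noise (chi-square per degree of freedom 9.34 and 13.1).

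The 54 genes, their complexes, the other lists (other replication genes, E2F and G1/S regulators, mitosis genes, cell type markers) and the tests were chosen with earlier results of these data known. Genes were named by this rule: MIB1, the 10 replication genes with the smallest p, the lowest and highest log2 fold change in each complex, and the 2 lowest and 2 highest of each other list among those tested, of which a marker gene is not reported here; further replication genes, such as GMNN, MCM2, PCNA, CLSPN and UHRF1, were named after their values were seen. At this depth, each replication gene had at least 54 reads in every library.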

Additional observations from a re-analysis of the deposited data

How the results depend on the processing

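No replication gene was called at the study's thresholds under any alternative run. At an adjusted p of at most 0.05 without the fold threshold, a count added after the data were seen, limma gave 0, DESeq2 3 (MCM3, GINS2, MCM10; 0.173% of all genes tested) and removal of GC and length trends 1 (MCM3, adjusted p = 0.0399; 0.155% of all genes). With the replicate number as a block the count was 27, all lower (3.56% of all genes tested were lower), and 11 of the other replication genes were lower at an unadjusted p under 0.05 in place of 6. The labels give the number no meaning and the block left 1 residual degree of freedom, so the samples were not treated as pairs. Over all genes tested, each with the same weight, the 2 pairs had a correlation of deviations of 0.144. That value does not decide whether the samples are pairs, and replicates of the same number shared a pattern within some complexes, as given below. The cause of the differences between these counts was not tested.

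When a library was left out (also read for p-values after the data were seen, the lone sample being assumed to vary like the other group), the count lower at an unadjusted p under 0.05 was 11 to 19 for the 54 genes and 2 to 5 for the other replication genes, with 11 and 2 without no dox replicate 1 and 12 and 3 without dox replicate 2. The median of the 54 genes was -0.34 to -0.26, and on log2(RPKM + 1) it was -0.28. Medians by complex then ran from -0.27 to -0.035 for the origin recognition complex, -0.47 to -0.21 for the loaders, -0.57 to -0.35 for helicase activation, -0.41 to -0.22 for polymerase alpha-primase, -0.87 to -0.37 for polymerase epsilon, -0.29 to -0.17 for the clamp and its loader, -0.050 to 0.072 for replication protein A and -0.54 to -0.33 for fork protection. Polymerase alpha-primase gave -0.28 with edgeR, DESeq2 and TMM scaling, -0.29 on log2(RPKM + 0.1) and -0.27 on log2(RPKM + 1), where polymerase epsilon gave -0.44, fork protection -0.26 and chromatin genes -0.32.

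The sign changed with a library left out for POLA1 (-0.56 to 0.44), RPA1 (-0.17 to 0.072), RPA2 (-0.050 to 0.11), RPA3 (-0.13 to 0.099), ORC6 (-0.33 to 0.15), RRM1 (-0.10 to 0.047) and TIMELESS (-0.31 to 0.015), and RPA2 was at -0.0039 with GC and length trends removed. MIB1 was lower throughout (-3.00 to -2.16 with a library left out), but its adjusted p was 0.613 without a count filter (log2 fold change -2.58), 0.108 on log2(RPKM + 0.1) (-2.33) and 0.0962 on log2(RPKM + 1) (-1.34); the cause was not tested. Depth limits CLSPN, POLA1, CDT1, GINS4, UHRF1 and HELLS most, with 54 to 261 reads per library. POLE, with 102 to 297 reads, and CHAF1A, with 115 to 320, were close to that range.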

Other observations

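The 13 E2F and G1/S regulators had a median log2 fold change of -0.23, with 9 below 0 and 1 lower at an unadjusted p under 0.05, against 4.59% of all genes tested. Both dox samples lay below both no dox samples for 8 of 13 and above for 0, against 17.2% and 19.0% of all genes tested. E2F7, a repressor that E2F factors switch on, had the lowest value with 15 and 12 reads without dox and 2 and 7 reads with dox (log2 fold change -1.22 ± 0.61). E2F2, an activator of S phase genes, had 102 and 88 reads without dox and 41 and 44 reads with dox (log2 fold change -0.73 ± 0.27, adjusted p = 0.414, limma). The cyclin-dependent kinase inhibitors stood highest: CDKN1B at 0.29 ± 0.23 and CDKN1A at 0.16 ± 0.15, with 26.8 and 37.7 CPM without dox and 32.1 and 38.7 CPM with dox for CDKN1A, so that its groups overlapped.

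All 20 mitosis genes had a log2 fold change below 0, with a median of -0.12 and 1 lower at an unadjusted p under 0.05, against 4.59% of all genes tested. The dox samples lay below the no dox samples for 9 of 20, against 17.2% of all genes tested. The median was -0.06 without dox replicate 1 and -0.23 without dox replicate 2. CCNB1, the mitotic cyclin, had 842 and 751 CPM without dox and 655 and 635 CPM with dox (log2 fold change -0.28 ± 0.09), and BUB1B, a spindle checkpoint kinase, was at -0.24 ± 0.12. TTK and ANLN, which act in the checkpoint and in cytokinesis, were at -0.02 ± 0.11 and -0.01 ± 0.12.

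Replicates of the same number shared a pattern within some complexes. All 6 MCM2-7 genes were higher in replicate 2 than in replicate 1 in both groups, and 4 of 6 genes of PCNA and its loader were lower in replicate 2 in both groups. Other complexes were mixed: of the 6 helicase activation genes 1 was higher and 3 were lower in replicate 2 in both groups. Over the 54 genes, 23 were higher and 17 lower in replicate 2 in both groups. The shares over all genes tested were not computed.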
